A study of Saccharomyces cerevisiae with 9 samples.

Results

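The aminoacyl-tRNA synthetases are the enzymes that join each amino acid to its tRNA, and 34 of their nuclear genes in Saccharomyces cerevisiae are described here, of 6516 genes listed in the data. The genes were taken by name: 20 encode enzymes of the cytosol and 14 encode enzymes of the mitochondrion. The measurement is where their transcripts end and how many ends were read. The reads come from Oxford Nanopore direct RNA sequencing, in which a pore reads the RNA molecule itself from its poly(A) tail, so that the start of a read marks the 3′ end of a transcript. Total RNA, 1 µg for each library, was extracted with hot phenol from frozen cell pellets.

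There were 3 groups of 3 libraries, and every group had rapamycin for 2 h. All strains are HHY168 with the label fpr1delta::hphMX4, a deletion of the gene for a rapamycin-binding protein. The group labelled WT carries nothing further, Bdp1AA carries BDP1-FRB::kanMX6, and Bdp1AA Rna15AA carries BDP1-FRB::kanMX6 together with RNA15-FRB::His. In the anchor-away method rapamycin ties an FRB-tagged protein to an anchor that leaves the nucleus, so the tagged protein is removed from it. Bdp1 belongs to TFIIIB, which sits on tRNA genes and recruits RNA polymerase III to them. Rna15 is an RNA-binding subunit of the cleavage factor that helps place poly(A) sites. As all groups had rapamycin, what the drug does by itself cannot be told apart from the rest.

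The 3 libraries of a group are pooled in 1 deposited column, so no spread between libraries can be computed and no p-value is given. Intervals are exact 95% intervals of read counts and cover counting error only. The values are a signal, a scaled number of read ends whose scaling no source used here states, and 1 read corresponds to a signal of 0.0429 in the group labelled WT, 0.0510 in Bdp1AA and 0.0758 in Bdp1AA Rna15AA. The tables hold 24559388, 16661847 and 7740285 reads in that order. Positions below a signal of 0.834, the highest listing minimum of the 3 tables, were left out, which kept 97.4%, 93.6% and 100% of the signal of the cytosolic genes. For the mitochondrial genes it kept 88.0%, 56.6% and 100%, so their values in Bdp1AA are the most affected. FPR1 went against its label: 158 reads downstream of it were listed in the group labelled WT, and none of its ends in the other groups. If the group labelled WT does hold FPR1, comparisons against it cannot tell that difference apart from the tagged genes. BDP1 had 340 listed reads in the group labelled WT and was not listed in Bdp1AA or Bdp1AA Rna15AA. RNA15 had 461 and 343 reads past its end in the group labelled WT and Bdp1AA, and in Bdp1AA Rna15AA its 382 listed reads all ended inside the gene.

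Yeast makes protein in the cytosol and in the mitochondrion, and most amino acids have a synthetase for each place, both encoded in the nucleus. Some genes serve both: ALA1 (alanine), GRS1 (glycine), HTS1 (histidine) and VAS1 (valine) give cytosolic and mitochondrial forms of one enzyme. When charged tRNA runs short, uncharged tRNA activates the kinase Gcn2, which raises translation of Gcn4, and Gcn4 activates genes of amino acid synthesis and several synthetase genes. Gcn4 binds the letters TGACTC and, in its symmetric form, TGACTCA.

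In the 300 bases before the start codon, TGACTC on either strand was found in 8 of the 20 cytosolic genes (40.0%) and in 1 of the 14 mitochondrial genes (7.14%), beside 454 of 5737 coding genes (7.91%). The cytosolic genes were ALA1, DED81, ILS1, KRS1, THS1, VAS1, YDR341C and YNL247W, and the mitochondrial gene was MSW1. TGANTCA, a wider search with any letter at the centre, whose matches overlap those of TGACTC where the letter at N fits, was found in 4 cytosolic genes (DED81, FRS2, GRS1 and YDR341C, 20%), in 2 mitochondrial genes (MSD1 and MSW1, 14.3%) and in 6.90% of coding genes. TGACTCA, searched after those matches were seen, was found in DED81 and YDR341C (10%), in no mitochondrial gene and in 2.68% of coding genes. Such a match is a description of letters and not a binding site. The 5 windows below show the match in capitals for KRS1, DED81, YDR341C and VAS1, picked from the comparisons that follow, and for mitochondrial MSW1. They are read on the gene's strand from the RefSeq genome of build R64, where GAGTCA is the same motif on the other strand, and lie at chrIV:525294-525323 (plus), chrVIII:143801-143830 (minus), chrIV:1153809-1153838 (minus), chrVII:672076-672105 (plus) and chrIV:1003732-1003761 (plus).
KRS1: tgaatgatgaaaTGACTCttaatgaacttc
DED81: aagacattcagTGACTCAagcatcgcttat
YDR341C: aaagtgtctaaTGAGTCAgttatttctttc
VAS1: atttttttagaaGAGTCAcccatacagcct
MSW1: ctatgcacatcaGAGTCAgattccttaaat

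Cytosolic synthetase transcripts were far more abundant than mitochondrial ones. In the group labelled WT the level, as signal per kb of gene, ran from 34.4 for YNL247W (the cysteine enzyme) to 248 for SES1 (serine) among the 20 cytosolic genes, with a median of 125. Among the 14 mitochondrial genes it ran from 1.84 for ISM1 (isoleucine) to 11.5 for MSK1 (lysine), with a median of 5.21. The lists therefore did not overlap in that group, and the median of all 5370 coding genes listed, 18.2, lay between them. A read gives 1 end whatever the length of its gene, so division by length changes the order of genes. As signal alone the lists ran from 79.2 (YNL247W) to 398 (GUS1) and from 3.09 (SLM5) to 19.96 (MSK1), again without overlap. In Bdp1AA the levels per kb again did not overlap, with 18.8 to 279 for cytosolic genes and 0.323 to 6.36 for mitochondrial genes, or 21.9 to 286 and 1.13 to 8.48 with positions as deposited. In Bdp1AA Rna15AA the lists overlapped, while their medians stayed apart at 32.5 for cytosolic and 2.93 for mitochondrial genes. Cytosolic levels ran from 1.05 for WRS1 (tryptophan), left with 18 reads, to 176 for SES1. The 10 mitochondrial genes listed ran from 0.805 for MSD1 (aspartate) to 30.6 for MSK1. ISM1, MSW1 (tryptophan), SLM5 (asparagine) and DIA4 (serine) were not listed there. Cytosolic synthetases together held 0.487% of the listed signal of the group labelled WT, 0.495% in Bdp1AA and 0.364% in Bdp1AA Rna15AA. The mitochondrial synthetases held 0.0127%, 0.00757% and 0.0209%, which is not a change shared by the whole list. Of their summed signal of 111 in Bdp1AA Rna15AA, MSK1 had 53.0 and MSY1 19.3. The position minimum kept 56.6% of their signal in Bdp1AA, beside 88.0% in the group labelled WT and 100% in Bdp1AA Rna15AA.

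**Figure D1:**
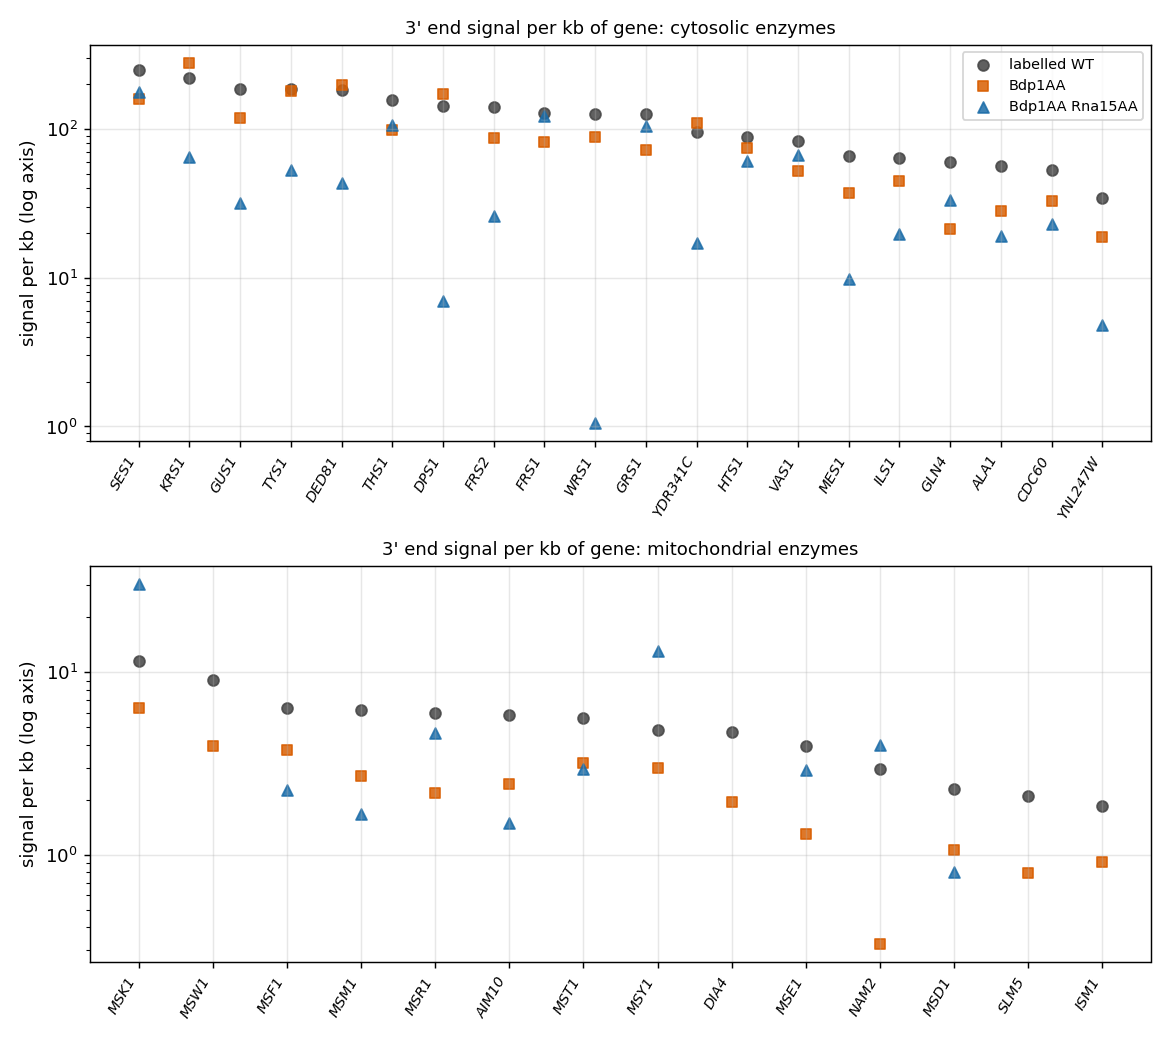
Signal per kb of gene (log axis) for each synthetase gene in the 3 groups, with cytosolic genes in the upper and mitochondrial genes in the lower panel, ordered by the group labelled WT; each point is 1 pooled value and a missing point is a gene not listed. WRS1, YNL247W and DPS1 lie lowest of the cytosolic genes in Bdp1AA Rna15AA, at 1.05, 4.84 and 6.98, while MSK1 lies highest of the mitochondrial genes in every group.

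The size of the gap was read in 12 pairs of a cytosolic and a mitochondrial gene for the same amino acid. Since the levels of the lists did not overlap in the group labelled WT and Bdp1AA, every pair had to show it there. Phenylalanine (FRS1, FRS2 and MSF1) was not among the pairs. The ratio of their levels per kb in the group labelled WT ran from 10.5 for methionine (MES1 over MSM1) to 87.4 for asparagine (DED81 over SLM5), with a median of 31.4. In Bdp1AA the ratios ran from 13.7 for methionine to 249 for asparagine, with a median of 54.9. The difference between the groups was much smaller without the position minimum. With positions as deposited, a setting added after the values were seen, the medians were 29.2 in the group labelled WT and 32.4 in Bdp1AA. The ratio was then larger in Bdp1AA in 10 of the 12 pairs and smaller for threonine and serine, and it reached 72.2 for asparagine. In Bdp1AA Rna15AA 8 pairs had both values, and their ratios ran from 2.12 for lysine (KRS1 over MSK1) to 35.9 for threonine (THS1 over MST1). The isoleucine, tryptophan, asparagine and serine pairs dropped out because their mitochondrial gene was not listed there. These ratios thus cover only pairs whose mitochondrial gene was high enough to be listed. Among those 8 pairs only threonine had a larger ratio there than in the group labelled WT, with 28.1, 31.0 and 35.9 in the 3 groups. For threonine they were 28.5, 22.3 and 35.9 with positions as deposited. For leucine (CDC60 over NAM2) the ratios were 18.0, 102 and 5.73 with the minimum and 17.0, 18.9 and 5.73 without it, since NAM2 kept 17 of its 101 deposited reads in Bdp1AA. For tyrosine (TYS1 over MSY1) they were 38.4, 60.1 and 4.05 with the minimum and 29.99, 36.6 and 4.05 without it.

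Against the group labelled WT, no cytosolic synthetase passed 2-fold in Bdp1AA as measured here, and GLN4 (glutamine) lay at the limit. Differences are log2 ratios of signal past the gene end, taken relative to the median gene, over genes for which each table held 60 reads or more. Of the 20 cytosolic genes none was 2-fold higher, beside 6.27% of the 4543 genes compared, and none was 2-fold lower, beside 9.95%. Their median was −0.14, and 6 of 20 lay above 0. Those 6 were KRS1 (lysine), DPS1 (aspartate), YDR341C (arginine), DED81 (asparagine), TYS1 (tyrosine) and HTS1.

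KRS1 had a signal of 389 from 9060 reads in the group labelled WT and 495 from 9723 reads in Bdp1AA, a difference of 0.86 (interval 0.82 to 0.90). DPS1 had signals of 238 and 286, a difference of 0.78, and YDR341C had 175 and 199, a difference of 0.70. These genes were also higher in the deposited signal itself, whereas the median gene was lower by 0.51 on the log2 scale. At the other end GLN4 had signals of 145 and 51.4, a difference of −0.98 (interval −1.08 to −0.88), which lies just inside the 2-fold limit. It was past the limit under 4 of 9 other settings, down to −1.49 on the deposited scale, where ALA1 passed too (−1.01) and 24.2% of all genes were 2-fold lower. Relative to the median gene ALA1 followed at −0.50 and YNL247W at −0.36. Of the 6 genes above 0, 3 carried TGACTC, as did 5 of the 14 below 0.

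Gene length moved with this comparison across all genes. With genes split into 6 classes of nearly equal number by length, the median difference went by class from 0.52 in the shortest genes, up to 570 bases, to −0.87 in the longest, from 2076 bases. Across the cytosolic genes Spearman's rho between difference and length was −0.57 (n = 20), a description over genes read in the same libraries. Set against coding genes of the same length class, the cytosolic median was 0.58 in place of −0.14, with 18 of 20 above 0 and KRS1 (1.17), DPS1 (1.09) and YDR341C (1.01) past 2-fold. The direction of the cytosolic median thus depends on whether length is taken into account.

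All 14 mitochondrial genes had a lower deposited signal in Bdp1AA than in the group labelled WT, with or without the position minimum. So did most genes: 81% of 5046 coding genes listed in both groups with the minimum and 65.9% of 5528 without it. Of the 20 cytosolic genes 16 and 15 were lower in the same way. Relative to the median gene, 8 of the 14 mitochondrial genes could be compared: MSF1 (phenylalanine), MSK1, MSM1 (methionine), MSR1 (arginine), MST1 (threonine), MSW1, MSY1 (tyrosine) and AIM10, which resembles prolyl-tRNA synthetases. None passed 2-fold relative to the median gene. On the deposited scale 4 of the 8 did (AIM10, MSM1, MSR1 and MSW1), beside 24.2% of all genes. With at least 20 reads 1 of 13 did (MSE1, the glutamate enzyme), beside 13.2%, and with the position minimum doubled 1 of 4, MSK1 (−1.93), beside 10.9%. The differences of the 8 genes relative to the median gene ran from −0.94 for MSR1 (signals of 11.5 and 4.23) to −0.17 for MSY1 (7.13 and 4.43), with a median of −0.52. The intervals of MSF1, MST1 and MSY1 reach past 0. With the positions as deposited all 14 could be compared, and their median was −0.31 with 5 above 0. How many lay below the median gene thus depends on the position minimum.

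Transcript ends of synthetase genes hardly moved in Bdp1AA. Past the annotated gene end, the mean 3′ end of cytosolic genes in the group labelled WT ran from 61.2 nt for GUS1 (glutamate) to 173 nt for CDC60 (leucine), with a median of 101 nt. For mitochondrial genes it ran from 69.1 nt for ISM1 to 166 nt for MST1, with a median of 111 nt. Ends of the 2 lists therefore overlapped, unlike their levels, and the median over coding genes was 120 nt.

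Between Bdp1AA and the group labelled WT the mean end of the 20 cytosolic genes differed by −5.19 nt (YNL247W) to 1.81 nt (TYS1). None passed the limit of 20 nt, beside 2.33% of all genes called distal and 0.902% called proximal. No cytosolic gene had 20 percentage points of its reads at other sites, beside 1.52% of all genes, and the largest such difference was 5.10 points for YNL247W. The most used position was the same in all 20, beside 4.80% of all genes in which it lay farther downstream and 6.60% in which it lay upstream. Among the 8 mitochondrial genes compared, the largest difference was in AIM10, whose mean end moved from 119 to 106 nt. Its site at 72 nt held 46.2% of 236 reads in the group labelled WT (interval 39.7 to 52.8%) and 62.7% of 83 reads in Bdp1AA (51.3 to 73.0%), and these intervals overlap.

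No synthetase gene has a tRNA gene within 500 bp past its end, the distance used here for a downstream TFIIIB site. The nearest is 861 bp past YDR341C on the same strand, and the next is 2560 bp past MST1. In YDR341C the mean end above the position minimum was 122 nt in both the group labelled WT and Bdp1AA. As deposited, 9 of its 4139 reads in Bdp1AA ended more than 500 nt past the gene. Positions are listed from 2 reads in Bdp1AA but from 11 in the group labelled WT, so such ends cannot be compared between them.

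In Bdp1AA Rna15AA the signals of cytosolic synthetases differed from Bdp1AA in both directions, as did those of genes at large. Between Bdp1AA Rna15AA and Bdp1AA, 19 of the 20 could be compared; 9 were 2-fold lower, beside 25.2% of the 2935 genes compared, and none was 2-fold higher, beside 25%. The median was −0.85, with 7 of 19 above 0. That none was higher depends on the setting: GLN4 and FRS1 lie just inside the limit, and 1 to 3 genes passed it under 5 of the other settings, beside 24.7% to 27.5% of all genes, with 3 at a minimum of 20 reads. In bulk RNA a lower signal cannot be divided into fewer transcripts per cell and fewer reads with a 3′ end listed at these positions.

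DPS1 was lowest of those compared, with 5618 reads (signal 286) in Bdp1AA and 154 reads (11.7) in Bdp1AA Rna15AA, a difference of −4.28 (interval −4.52 to −4.05). YDR341C went from 199 to 31.2, a difference of −2.34. DED81 went from 328 to 71.6 (−1.86) and KRS1 from 495 to 115 (−1.76). Between Bdp1AA and the group labelled WT, a comparison that shares the Bdp1AA column, these genes had differences of 0.78, 0.70, 0.62 and 0.86. The other 5 lower genes were YNL247W (−1.62), MES1 (methionine, −1.58), GUS1 (−1.57), TYS1 (−1.43) and FRS2 (−1.40).

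WRS1 fell outside the comparison because 18 reads were left. Its signals were 162 from 3785 reads in the group labelled WT, 114 from 2234 reads in Bdp1AA and 1.36 in Bdp1AA Rna15AA, all 18 reads at 72 nt, its most used position in every group. No fold is given for it, since other positions may lie below the listing minimum.

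At the upper end GLN4 went from 51.4 to 80.5 (0.98, interval 0.86 to 1.11), FRS1 from 145 to 219 (0.93), GRS1 from 144 to 211 (0.89), VAS1 from 174 to 221 (0.68), SES1 from 221 to 245 (0.49) and THS1 from 218 to 234 (0.43). FRS1 and FRS2 encode the beta and alpha subunits of the same phenylalanine enzyme, yet lay 0.93 above and 1.40 below the median gene. Their signals were close to each other in the group labelled WT (230 and 213) and in Bdp1AA (145 and 131), and apart in Bdp1AA Rna15AA (219 and 39.2). Near the median gene lay HTS1 (0.04), CDC60 (−0.18) and ALA1 (−0.23). ILS1 (isoleucine) was lower by less than 2-fold (−0.85, interval −0.96 to −0.73) and passed 2-fold under 4 of 9 other settings.

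**Figure D2:**
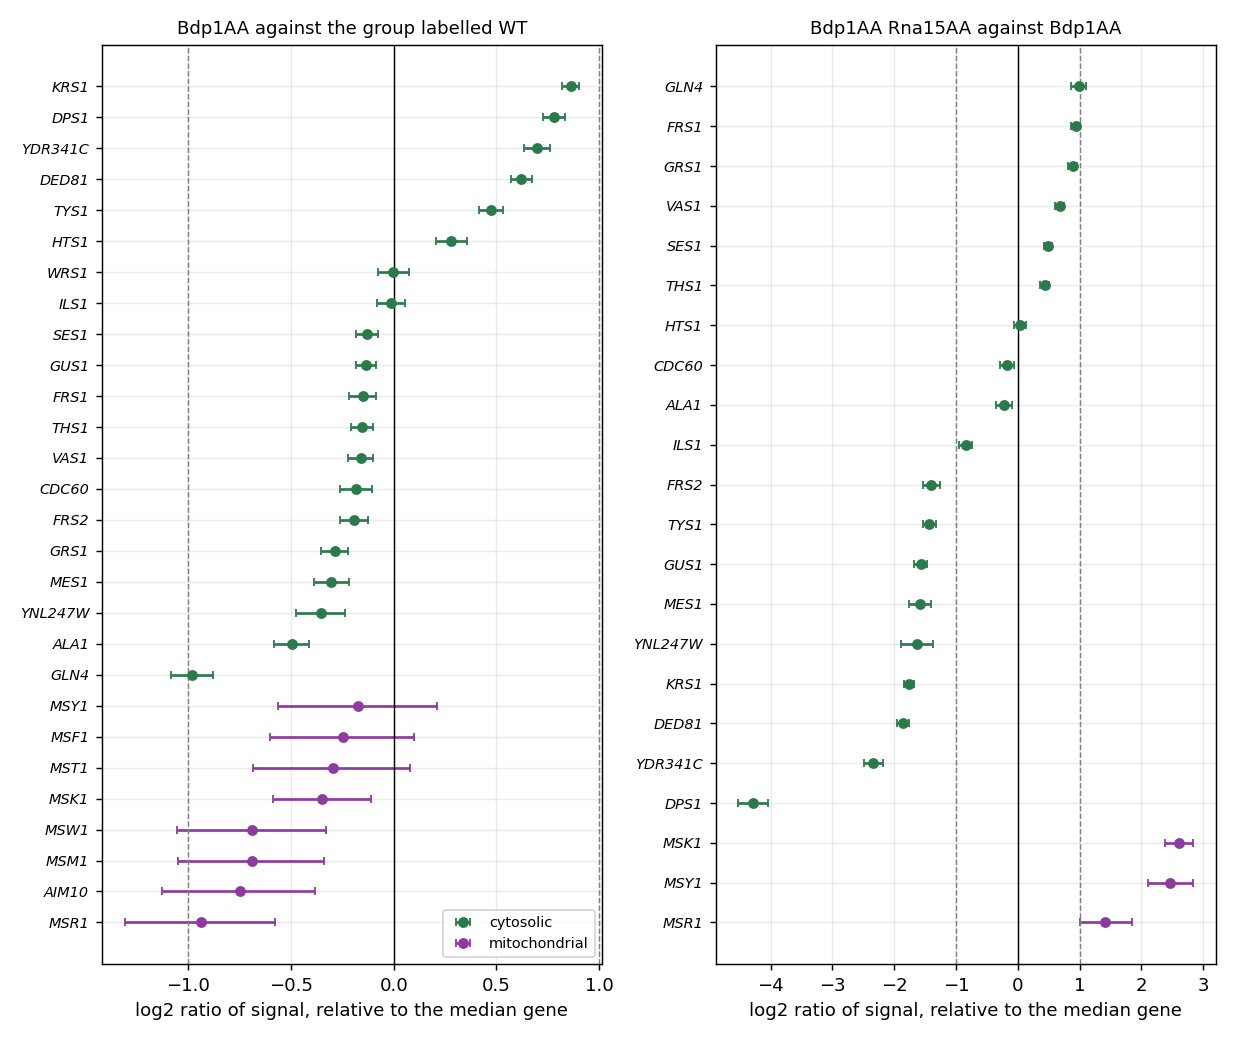
Log2 ratio of signal relative to the median gene for each synthetase gene with 60 reads or more in each group, with exact 95% counting intervals as bars; dashed lines mark 2-fold. In the left panel the genes lie between −0.98 and 0.86, and in the right panel DPS1 lies at −4.28 while MSK1, MSY1 and MSR1 lie at 1.42 to 2.60.

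Directly against the group labelled WT, which shares the Bdp1AA Rna15AA column with the comparison above, 7 of 19 cytosolic genes were 2-fold lower, beside 24.6% of the 3003 genes compared, and none was higher, beside 26.1%. The 7 were DPS1 (−3.49), YNL247W (−1.97), MES1 (−1.88), GUS1 (−1.70), YDR341C (−1.63), FRS2 (−1.59) and DED81 (−1.23). KRS1 (−0.90) and TYS1 (−0.95) lay inside the limit here. The median was −0.85 again, with 7 of 19 above 0. On the deposited scale, without centring on the median gene, 12 of the 19 were 2-fold lower, beside 45.8% of all genes, and none lay above 0, beside 28.7%. With the position minimum doubled 10 were lower, beside 25.3%. With a minimum of 20 reads 6 were lower, beside 27.3%, and 1, FRS1, was higher, beside 27.6%.

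The mitochondrial genes are given one by one, because at low signal a gene could be compared only where Bdp1AA Rna15AA held enough reads. MSK1 had signals of 19.96 from 465 reads, 11.01 from 216 reads and 53.0 from 699 reads in the group labelled WT, Bdp1AA and Bdp1AA Rna15AA. It was higher in the last than in Bdp1AA by 2.60 (interval 2.38 to 2.83) and than in the group labelled WT by 2.26. Besides charging lysine tRNA, its product is known for a part in carrying a cytosolic lysine tRNA into mitochondria.

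MSY1 had signals of 7.13, 4.43 and 19.3, and was higher in Bdp1AA Rna15AA by 2.46 and 2.30 against Bdp1AA and the group labelled WT. MSR1 had signals of 11.5, 4.23 and 8.95, with differences of 1.42 (interval 1.00 to 1.84) and 0.49. Set against genes of its length or with positions as deposited, MSR1 lay within 2-fold of Bdp1AA. NAM2, the leucine enzyme that also helps splice introns of mitochondrial transcripts, had signals of 7.90, 0.866 and 10.8. It was 1.30 above the median gene against the group labelled WT and had too few reads in Bdp1AA. On the deposited scale its difference from the group labelled WT was 0.45.

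MSE1 (glutamate) had signals of 6.35, 2.09 and 4.70 and a difference of 0.42 from the group labelled WT, with an interval that reaches past 0. Fewer than 60 reads were left in Bdp1AA Rna15AA for MST1 (signals of 7.77, 4.43 and 4.09), MSF1 (8.97, 5.30 and 3.18), MSM1 (10.8, 4.69 and 2.88), AIM10 (10.1, 4.23 and 2.58) and MSD1 (4.51, 2.09 and 1.59). These 5 genes had their lowest deposited signal in Bdp1AA Rna15AA, unlike MSK1, MSY1 and NAM2, which had their highest there. On that scale the median gene itself differed by −0.34 from Bdp1AA and by −0.86 from the group labelled WT. Of all genes compared, 41.8% and 28.7% had a higher deposited signal in Bdp1AA Rna15AA. The signals of MST1 in Bdp1AA and Bdp1AA Rna15AA rest on 87 and 54 reads. The 4 genes not listed in Bdp1AA Rna15AA had signals of 10.3 and 4.48 (MSW1), 6.27 and 2.60 (DIA4), 5.54 and 2.75 (ISM1) and 3.09 and 1.17 (SLM5) in the other groups.

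Transcript ends of the cytosolic genes lay farther downstream in Bdp1AA Rna15AA than in Bdp1AA. Of 19 genes 14 were shifted by at least 20 nt, beside 42.2% of all genes, none was shifted upstream, beside 1.26%, and the median shift was 45.8 nt. Against the group labelled WT, which shares the Bdp1AA Rna15AA column, 14 genes were called, beside 41.9% of all genes, with none proximal beside 1.17%. The count depends on the measure: against Bdp1AA 4 of 19 genes were called by the median end position, beside 21.8% of all genes, and 6 of 19 with ends within 500 nt, beside 27.6%. Without ends also listed under another gene 6 of 18 were called, beside 33.6%. Shares of the cytosolic genes at these 3 settings were thus close to those of all genes. Among genes with at least 800 reads in Bdp1AA, 45.3% were shifted distally. Among the 14 genes 2 patterns were seen, a change between neighbouring poly(A) sites and a small share of ends far downstream. In GRS1, with a shift of 23.1 nt, both were slight. It had 2.62 percentage points of its reads at other sites and 0.503% of them beyond 500 nt.

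**Figure D3:**
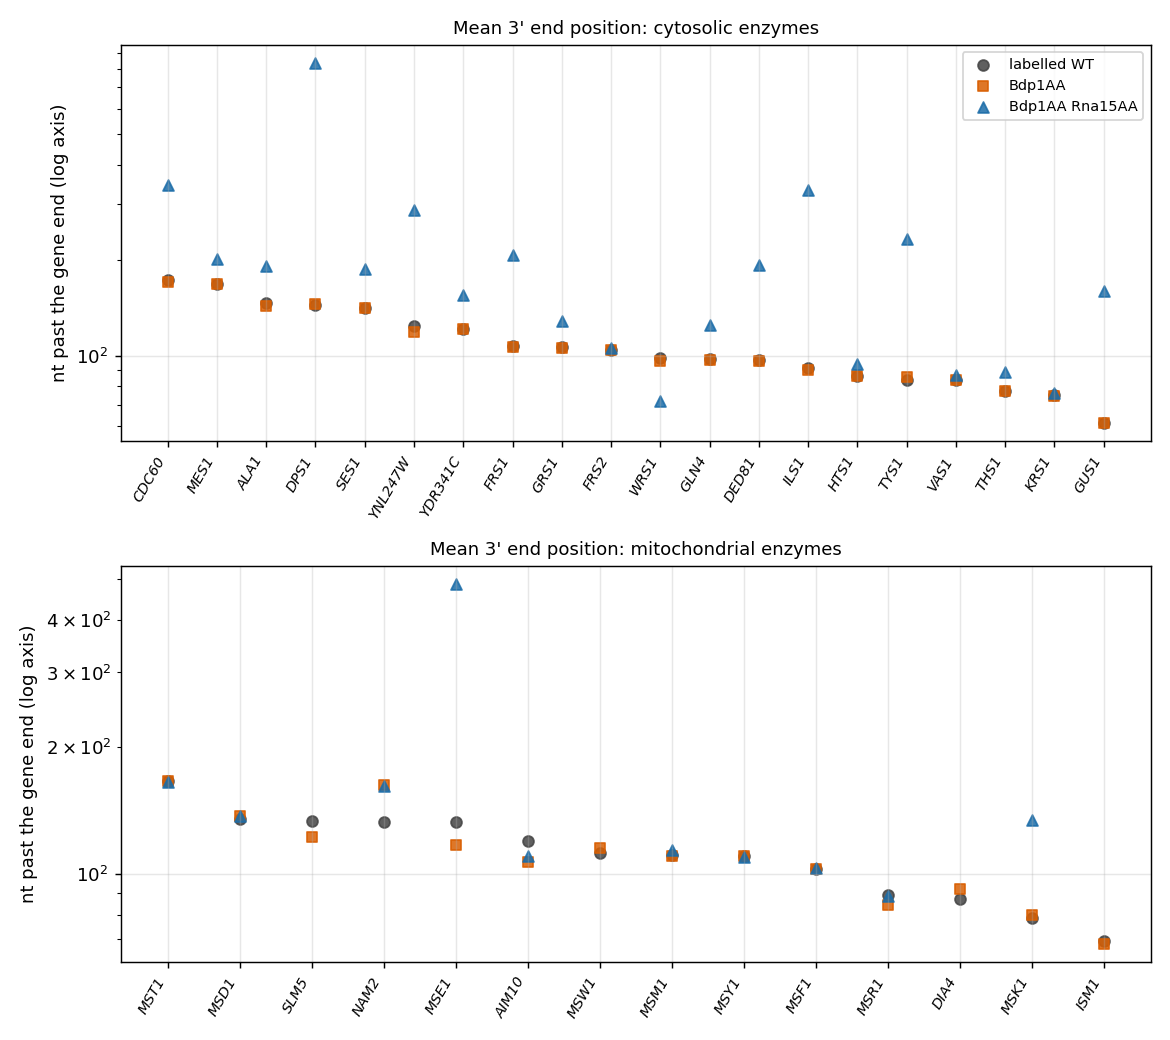
Mean 3′ end position in nt past the annotated gene end (log axis) for each synthetase gene in the 3 groups, ordered by the group labelled WT. The points of the group labelled WT and Bdp1AA nearly coincide for cytosolic genes, while those of Bdp1AA Rna15AA lie up to 837 nt (DPS1) from the gene end.

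A change of site was called, from 20 percentage points of reads, in 6 of 19 cytosolic genes, beside 27.1% of all genes: CDC60, ALA1, YDR341C, MES1, ILS1 and GLN4. Against the group labelled WT 6 were called, beside 26.6%. ILS1 was called through far ends, and without ends shared with another gene 5.97 points were left. Against Bdp1AA, MES1 and YDR341C were not called with positions as deposited, nor GLN4 and YDR341C with clusters joined at 50 nt, since their ends then formed 1 cluster. Windows of 30 bases that end at the sites of 5 of these genes and of FRS1 are shown, because the results turn on which site was used. Each is named by the gene and its distance past the gene end, with capitals where AATAAA occurs in the window. They come from build R64 on the gene's strand, and on the minus strand the position is certain to 1 nt. The windows of CDC60 (plus) lie at chrXVI:250404-250433 and chrXVI:250647-250676, of ALA1 (minus) at chrXV:946096-946125 and chrXV:946023-946052, of YDR341C (minus) at chrIV:1151715-1151744 and chrIV:1151638-1151667, of FRS1 (plus) at chrXII:262843-262872 and chrXII:262955-262984, of GLN4 (plus) at chrXV:651805-651834 and chrXV:651881-651910, and of ILS1 (minus) at chrII:80946-80975 and chrII:79888-79917.
CDC60 171 nt: attgtaattgcacaactgtttttgttttgt
CDC60 414 nt: atatacatgtaaaaaaggtgttctaaatga
ALA1 137 nt: tttacaaggacaaaagatttgctgttaaaa
ALA1 210 nt: gtttatgctaataatattgtatagtttatc
YDR341C 88 nt: ttgtataaacggattatttcaatccttgcc
YDR341C 165 nt: aaaaaataagaaaacaagattcgtaaagta
FRS1 106 nt: tagaaacacaactaaagtttaccatgtttt
FRS1 218 nt: atttaataatacatccatacatttatgtta
GLN4 102 nt: ttttttaattatattagatAATAAAgacca
GLN4 178 nt: aattataatgaaaacaaaaatggaatataa
ILS1 97 nt: ttacgtttaagttagagtcatgtaatgcta
ILS1 1155 nt: agaatAATAAAtaaatactcgactatattt

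CDC60 (chrXVI:246990-250262) changed most. The cluster around 171 nt held 95.6% of its 4046 reads in the group labelled WT and 97.6% of 2105 in Bdp1AA, but 30.3% of 991 in Bdp1AA Rna15AA (interval 27.4 to 33.2%). The other 69.7% ended at 399 to 437 nt, most often at 414 nt. No read was listed there in the group labelled WT, and in Bdp1AA 12 of 2323 reads were, all at positions below the minimum. Its total signal differed from that of the median gene by −0.18, so CDC60 combined the largest change of site among the synthetases compared with Bdp1AA with a small difference in signal.

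ALA1 had 88.8% and 90.9% of reads around 137 nt in the group labelled WT and Bdp1AA, and 36.3% of 725 reads in Bdp1AA Rna15AA (interval 32.8 to 39.9%), where 63.7% ended around 210 nt. YDR341C used its sites near 88 and 165 nt almost equally in the group labelled WT and Bdp1AA, with 45.0% and 45.4% at the farther one. In Bdp1AA Rna15AA the farther site held 87.3% of 411 reads (interval 83.7 to 90.4%), and the nearer cluster had gone from a signal of 109 in Bdp1AA to 3.94. The lower signal of YDR341C was thus found at both sites, with 90.1 in Bdp1AA and 27.2 in Bdp1AA Rna15AA at the farther one.

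MES1 had 43.9%, 45.1% and 14.0% of its reads around 125 nt in the 3 groups, and its other reads ended from 184 nt on. GLN4 had 25.6% of its 1061 reads at 167 to 203 nt in Bdp1AA Rna15AA (interval 23.0 to 28.4%), 0.683% in the group labelled WT and none above the minimum in Bdp1AA, where 10 of 1207 deposited reads lay there. ILS1 had 100% of its listed reads in 1 cluster around 97 nt in the group labelled WT and Bdp1AA, and 73.7% of 833 there in Bdp1AA Rna15AA. FRS1 was not called by clusters, because ends spread continuously joined its sites into 1 cluster. Its reads at 200 nt or beyond were 0.579% of 5352 in the group labelled WT, 0 of 2846 in Bdp1AA (21 of 3059 as deposited) and 40.4% of 2893 in Bdp1AA Rna15AA (interval 38.6 to 42.2%).

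**Figure D4:**
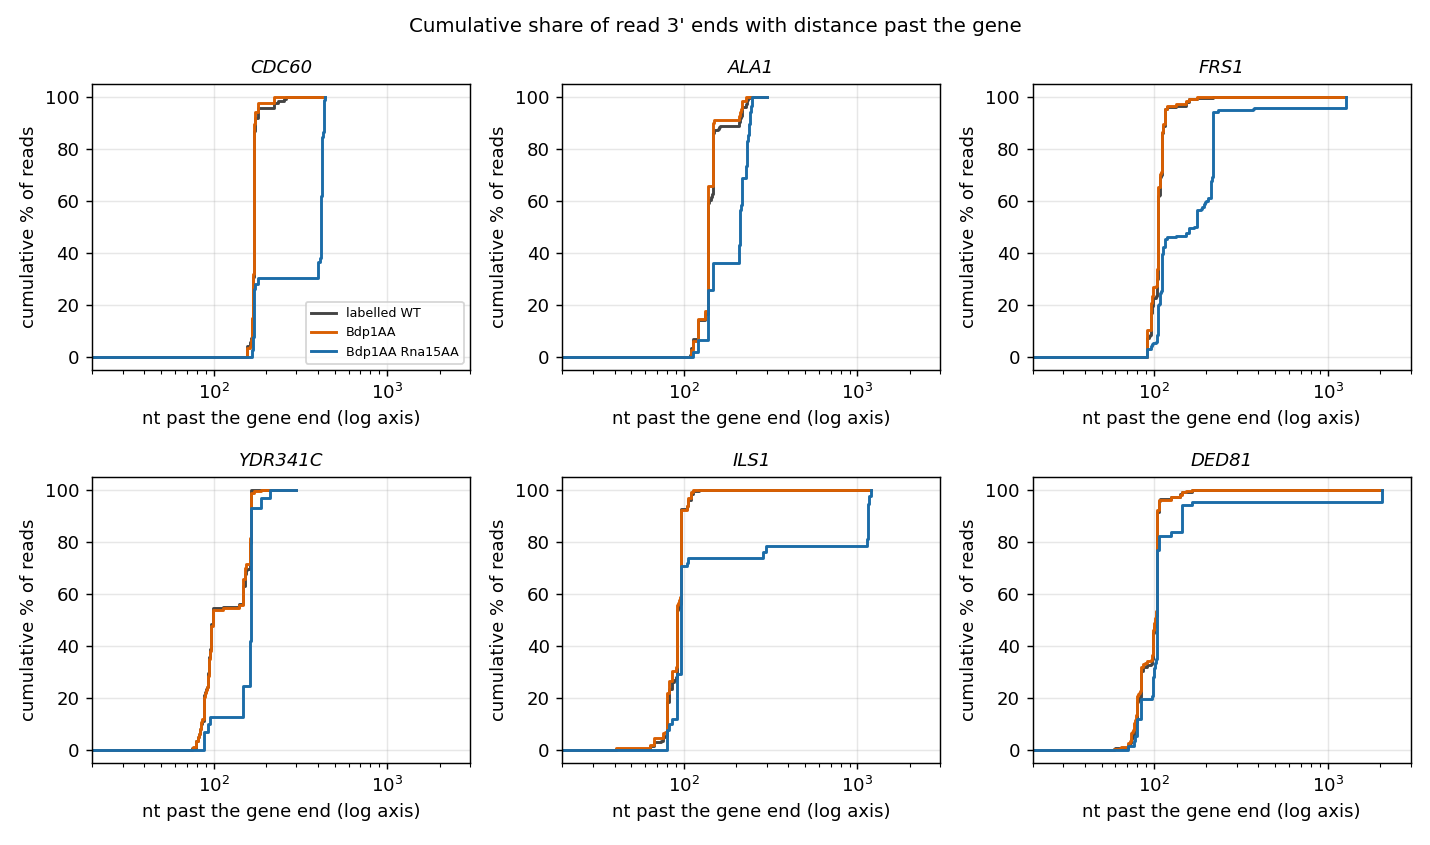
Cumulative percentage of listed read ends with distance past the gene end (nt, log axis) for CDC60, ALA1, FRS1, YDR341C, ILS1 and DED81, one line for each group. The lines of the group labelled WT and Bdp1AA lie close together, and in Bdp1AA Rna15AA CDC60 has 30.3% of its reads before the step near 414 nt while ILS1 and DED81 have steps around 1155 and 2057 nt.

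The most used position itself lay farther downstream in 6 of 19 cytosolic genes in Bdp1AA Rna15AA than in Bdp1AA, beside 30.5% of all genes, and upstream in none, beside 3.54%. It went from 171 to 414 nt in CDC60, from 106 to 218 nt in FRS1, from 125 to 192 nt in MES1, from 74 to 89 nt in THS1, from 74 to 82 nt in HTS1 and from 96 to 102 nt in GLN4. The small steps in THS1, HTS1 and GLN4 occurred within 1 cluster. THS1 and HTS1 are 2 of the 5 compared genes that were not shifted by 20 nt, with mean shifts of 11.6 and 7.45 nt. The other 3 were VAS1 (3.26 nt), KRS1 (1.81 nt) and FRS2 (1.12 nt), and of these KRS1 and FRS2 had a signal more than 2-fold lower. A lower signal and a moved end did not always come together.

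No synthetase gene had ends above the minimum more than 500 nt past the gene in the group labelled WT, beside 4.79% of coding genes, or in Bdp1AA, beside 4.29%. As deposited, Bdp1AA held 14 such reads of cytosolic genes, 9 of them of YDR341C, and 2 of a mitochondrial gene. In Bdp1AA Rna15AA ends beyond 500 nt made up 567 of 25549 reads of the cytosolic genes (2.22%), beside 5.03% over all coding genes. Over all coding genes the share was already 2.52% in the group labelled WT and 3.94% in Bdp1AA, where the cytosolic genes had none above the minimum. The 567 reads came from 9 of 20 genes, beside 23.4% of coding genes with such ends. These ends were shared with the next gene on the same strand, that is, they lay at positions also listed for that gene. ILS1 had 159 reads (19.1%, interval 16.5 to 21.9%) around 1155 nt, at ends of ATG8, an autophagy gene, and 21 more at 1192 nt. FRS1 had 122 reads (4.22%) around 1283 nt, at ends of the ribosomal protein gene RPL22A, and SES1 had 108 (3.35%) around 1517 nt, at ends of the ribosomal protein gene RPS11A. The reads of FRS1 and SES1 came to 1.07% of the 11448 reads of RPL22A at the shared positions and 1.61% of the 6707 of RPS11A. Such a share has the other gene's reads at the shared positions as its divisor. It is therefore larger by construction where those reads are few, and it does not measure the abundance of those genes. At the far end of DPS1 its reads came to 46.3% of the 54 listed there for COX19. They came to 14.5% of the 172 for KNS1 and 6.60% of the 379 for YLL020C. At the far end of SES1 its reads came to 55.4% of the 195 listed there for FYV1.

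DED81 had 43 reads (4.56%) around 2057 nt, at ends of ARG4, an arginine synthesis gene, and GUS1 had 43 (4.82%) around 2124 nt, at ends of RTF1, which encodes a transcription elongation factor. DPS1 had 25 of its 154 reads (16.2%, interval 10.8 to 23.0%) around 4449 nt, beyond COX19 and KNS1. These 25 reads set its mean end: it was 145 nt in Bdp1AA and 837 nt in Bdp1AA Rna15AA, and with ends within 500 nt the difference was −7.50 nt. YNL247W had 13 reads (8.84%) at 1996 nt, at the end of VPS75. TYS1 had 19 (2.29%) at 6517 nt, at the end of UBR1, and GRS1 had 14 (0.503%) at 995 nt, at the end of CBP6. Most ends of GRS1 are also listed for an overlapping dubious frame, YBR121C-A, so its values are less certain.

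Of the mitochondrial genes MSE1 and MSK1 had such ends. MSE1 had 19 of 62 reads (30.6%, interval 19.6 to 43.7%) at 1138 nt, at the end of OPI10, and 13 at 317 nt, and its mean end was 133 nt in the group labelled WT and 487 nt in Bdp1AA Rna15AA. MSK1 had 33 of 699 reads (4.72%) at 1207 nt, at the end of RNH201, and its mean end was 79.7 nt in Bdp1AA and 134 nt in Bdp1AA Rna15AA. NAM2 had 32.1% of its reads around 76 nt in the group labelled WT and all its 142 listed reads at 160 to 163 nt in Bdp1AA Rna15AA, a shift of 28.6 nt. MSY1 kept its mean end at 110 nt in all 3 groups while its signal was highest in Bdp1AA Rna15AA. MSR1 likewise had mean ends of 89.0, 84.2 and 88.4 nt.

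The direction of the next coding gene was then set beside the shifts, a split chosen after the values were seen. In Bdp1AA Rna15AA against Bdp1AA all 11 cytosolic genes followed by a gene on the same strand were called distal, with shifts of 23.1 to 692 nt and a median of 98.2 nt. Of all genes with that arrangement 48.8% were called. Of 8 cytosolic genes that face a gene on the other strand 3 were called (ALA1, CDC60 and GLN4), with a median shift of 9.51 nt over the 8, beside 37.0% of all genes so arranged. The 3 are genes with a change of site and no listed end beyond 500 nt. The contrast depends on the measure. With ends within 500 nt 3 of 11 same-strand genes were called, beside 24.3% of all genes so arranged, and 3 of 8 facing genes, beside 31.5%. Under the nearest gene the counts were the same, beside 27.4% and 35.4%. Without shared ends they were 3 of 10 and 3 of 8, beside 29.1% and 37.9%. By median position they were 2 of 11 and 2 of 8, beside 21.8% and 23.0%, and with the position minimum doubled 6 of 11 and 3 of 8, beside 38.3% and 32.5%.

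In the 60 bases up to the most used end in the group labelled WT, TATATA was found on the transcript strand in 9 of 20 cytosolic genes (45.0%), in 3 of 14 mitochondrial genes (21.4%) and in 37.4% of coding genes. AATAAA was found in 4 cytosolic genes (20%), in 4 mitochondrial genes (28.6%) and in 15.8% of coding genes. In CDC60 TATATA occurred before the 171 nt site, and both motifs before the 414 nt site. In ALA1 neither occurred before the 137 nt site, and TATATA occurred before the 210 nt site.

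Other genes of tRNA charging and of the sensor of uncharged tRNA, a list of 15, were read beside the synthetases. Between Bdp1AA and the group labelled WT 10 could be compared. None was 2-fold higher, beside 6.27% of all genes, and 1 was lower, beside 9.95%: GCN1 (−2.06), which encodes an activator of Gcn2 and is a long gene of 8019 bases. Between Bdp1AA Rna15AA and Bdp1AA 9 could be compared, of which 1 was higher, beside 25% of all genes, and 3 lower, beside 25.2%. GCN4 was higher (1.19), with signals of 716, 768 and 1388 in the 3 groups, and PTH2 (a peptidyl-tRNA hydrolase, −2.62), YIH1 (an inhibitor of Gcn2 activation, −1.89) and GTF1 (−1.37) were lower. GTF1 belongs to the complex that makes glutaminyl-tRNA in mitochondria. Against the group labelled WT 1 of 9 was higher, beside 26.1%, and 4 lower, beside 24.6%. GCN4 was higher by 1.81, and PTH2 (−2.48), GCN1 (−2.39), GCN20 (−1.58) and YIH1 (−1.29) were lower.

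The signal of GCN4 transcripts was thus highest in Bdp1AA Rna15AA, while the 8 cytosolic genes with TGACTC had differences from Bdp1AA of −2.34 to 0.68, with 2 above 0. The 11 compared genes without it had differences of −4.28 to 0.98, with 5 above 0. These levels are of transcripts, and Gcn4 protein was not measured. ARC1, whose product binds tRNA and joins with Gus1 and the methionine enzyme, had signals of 378, 281 and 171 and a difference of −0.38 between Bdp1AA Rna15AA and Bdp1AA, beside −1.57 for GUS1 and −1.58 for MES1. YHR020W, which encodes the cytosolic proline enzyme, had signals of 272, 211 and 149 and a difference of −0.16.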

How the data were processed

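The authors deposited 1 table for each group, with 3 libraries pooled in 1 column, holding a signal for each gene and 3′ end position; the scaling of the signal, the aligner and the counting tool are not stated by any source used here. The genome build was R64, per the submitters' processing notes. All values were whole multiples (within 0.001 of a read) of a step taken as 1 read. Positions and genes are as deposited, with distance recomputed as nt past the annotated gene end. A gene was compared where each table held 60 reads or more, over all genes, with Python 3.11.15, pandas 2.3.3 and scipy 1.17.1. Log2 ratios were centred on the median gene, by −0.51, −0.34 and −0.86 for Bdp1AA against WT, Bdp1AA Rna15AA against Bdp1AA and Bdp1AA Rna15AA against WT. Calls were set at 2-fold, 20 nt and, for ends joined within 25 nt into clusters of at least 10 reads, 20 percentage points. The procedure was tested on simulated data drawn from the Bdp1AA ends with counting error alone. That test held no spread between libraries, and its planted changes lay well past the limits in genes with many reads. It does not show how changes near the limits or in genes with few reads are found. The planned test per library was replaced by values with counting intervals, as the plan provided. Members and lists were chosen with earlier results of these data known. Every member is named, with full values for those past a limit or at the ends of a comparison, and of the other pathway genes those past 2-fold were named by rule; ARC1 and YHR020W were added after their values were seen.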

Additional observations from a re-analysis of the deposited data

How the results depend on the processing

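No paired analysis was possible because each deposited column pools the 3 libraries of a group, and for the same reason leaving out replicates, a replicate block and tests over replicates were not run. Depth limits the mitochondrial genes most. Between Bdp1AA and the group labelled WT the cytosolic median of −0.14 was −0.66 on the deposited scale, −0.33 with positions as deposited and 0.58 against genes of the same length, and the mitochondrial median of −0.52 was −1.03 on the deposited scale. With positions as deposited 1 mitochondrial gene (MSF1) was called distal, and with clusters joined at 10 nt 1 (MSR1) was called for its sites. Between Bdp1AA Rna15AA and Bdp1AA the cytosolic median of −0.85 was −1.18 on the deposited scale, −1.33 against genes of the same length, −0.61 with at least 20 reads, −0.68 with positions as deposited, −1.09 with the position minimum doubled, −1.16 with each end under the nearest gene and −1.04 without ends listed under another gene, a setting added after seeing the data. Against the group labelled WT the values were −1.71, −0.71, −0.58 and −1.005 for deposited scale, length, 20 reads and doubled minimum, and −0.68 without shared ends. In both comparisons the 14 distal calls became 9 with the minimum doubled, 4 by median position and 6 under the nearest gene, within 500 nt or without shared ends. Of the 6 site calls against the group labelled WT 3 were left with clusters joined at 50 nt. The shift changed sign, each time to a value under 20 nt, for DPS1 (−11.6 nt against Bdp1AA and −7.71 nt against the group labelled WT with the minimum doubled, −7.50 and −6.30 nt by the 3 settings that remove far or shared ends), GUS1 (−1.35 and −1.12 nt, then −1.30 and −1.05 nt) and TYS1 (−3.67 and −2.93 nt with the minimum doubled, −0.0503 nt against Bdp1AA by those 3 settings and −2 nt by median position). It also did so for SES1 (−0.28 nt by those 3 settings and −2 nt by median position in both comparisons), YNL247W (−1.11 nt against the group labelled WT by those 3 settings) and NAM2 (−0.54 nt with the minimum doubled). The limit of 500 nt leaves out far ends by construction. The far ends of these cytosolic genes were also listed under a nearer gene. Giving each end to the nearest gene, or dropping shared ends, therefore removes them too. The cause of the changes at the other settings was not tested.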

Other observations

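Ends of genes beside the synthetases were also listed at synthetase sites in Bdp1AA Rna15AA: 13 reads listed for MRPL36, a mitochondrial ribosomal protein gene, ended at the most used site of GRS1, 103 nt past it. Among the other genes of tRNA charging, GCN20, which encodes a partner of Gcn1, had its mean end at 81.4 nt in the group labelled WT, 74.1 nt in Bdp1AA and 952 nt in Bdp1AA Rna15AA, with 82.2 percentage points of its reads at other sites in the last. DTD1, which encodes an enzyme that removes D-amino acids from tRNA, had its most used end at 54 nt in the group labelled WT and Bdp1AA and at 265 nt in Bdp1AA Rna15AA. YHR020W moved from 84.2 to 159 nt and YIH1 from 175 to 410 nt between Bdp1AA and Bdp1AA Rna15AA. These 4 genes were chosen after their values were seen. FMT1, the formyltransferase of mitochondrial initiator tRNA, had 7 reads in Bdp1AA as deposited, below the position minimum, and was not listed in the other groups.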
